A study of Mus musculus with 91 samples.

Results

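The genes described here are Dcn, Gsn, Ly6c1, Ly6a, Cd34, Clec3b and Pi16, a group of 7 genes carried by connective tissue fibroblasts. All 7 were present among the 16580 genes of the deposited table. They were chosen by name because earlier results from the same 91 cells had shown them at high level together, so their measured values in these cells chose them, and their levels are given as a description with no test. Each cell is a single mouse bone marrow cell of strain C57BL/6, freed by crushing bones, stained with antibodies, sorted with its fluorescence recorded (index sorting) and sequenced as its own Smart-seq2 library, a full-length method. All cells had been sorted as negative for CD45, Ter119, CD41 and CD71, which mark blood cells, positive for a DNA dye that separates cells from debris, and positive for VCAM1, which stromal cells of the marrow use for adhesion. The VCAM1+CD61+ gate held 39 cells (17 from plate 1 and 22 from plate 2), the VCAM1+CD61- gate 40 cells (24 from plate 1 and 16 from plate 2), and a VCAM1+ gate not split on CD61 held 9 cells (8 from plate 2 and 1 from plate 3). For 3 cells the labels disagree about the gate, and they are listed without one. The labels name no animal: a gate therefore counts as 1 sample and nothing was tested between gates. Each plate held 1 gate, so the effect of a plate and that of a gate cannot be told apart. The VCAM1+ cells had lower VCAM1 intensity than their gate name implies: 6 of the 9 lay below 352, the lowest value among the cells of both split gates.

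These genes have distinct roles in the connective tissue cells that wrap vessels, nerves and muscle. Dcn encodes decorin, a small leucine-rich proteoglycan that binds collagen fibrils, Gsn encodes the actin-severing protein gelsolin, and Clec3b encodes tetranectin, a secreted C-type lectin that binds plasminogen. Ly6a (Sca-1) and Ly6c1 encode small surface proteins held by a lipid anchor, Cd34 encodes a surface sialomucin, and Pi16 encodes a peptidase inhibitor of the CAP domain family. Fibroblasts of the adventitia, the outer sheath of vessels, are known in several mouse tissues for carrying all of them, and some members are shared: endothelial cells also carry Ly6a, Ly6c1 and Cd34, blood progenitors Ly6a and Cd34, and bone-forming cells Dcn. CXCL12-abundant reticular (CAR) cells and osteolineage cells are the other stromal cells that a VCAM1 sort of marrow can hold.

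In the mouse genome build GRCm38 (mm10), GENCODE vM21 places the 7 protein-coding genes on 6 chromosomes. Dcn lies at chr10:97479609-97518143, Gsn at chr2:35256380-35307892, Cd34 at chr1:194938819-194961279, Clec3b at chr9:123150946-123157432 and Pi16 at chr17:29317680-29330593, all on the plus strand. Ly6a at chr15:74994877-74998031 and Ly6c1 at chr15:75044018-75048830 lie on the minus strand in the same gene cluster. Because these Ly6 genes are near copies, 46.8% of the 31-base words of the Ly6c1 transcripts and 31.9% of those of Ly6a also occurred in transcripts of other genes, first Ly6c2 for Ly6c1 and Ly6c1 for Ly6a. How reads were split between them therefore makes their separate counts uncertain. The share was 7.4% for Pi16, 4.97% for Cd34 and 0.223% for Dcn, and no such word was found for Gsn or Clec3b.

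Promoters of 3 members from RefSeq (build GRCm38.p6) are shown, 1 for a gene high in 3 cells (Pi16), 1 for the Ly6 pair (Ly6c1) and 1 for a gene with low counts in many cells (Cd34); each runs from 250 bases before to 50 bases after an annotated start. Capitals mark every match, on either strand, to TATAAA (held by 13.6% of 32851 promoter windows of the same length), CCAAT (37.4%), TGANTCA (7.81%), CANNTG (72.3%) or GGGCGG (35.7%).
Pi16, chr17:29318632-29318931, plus strand: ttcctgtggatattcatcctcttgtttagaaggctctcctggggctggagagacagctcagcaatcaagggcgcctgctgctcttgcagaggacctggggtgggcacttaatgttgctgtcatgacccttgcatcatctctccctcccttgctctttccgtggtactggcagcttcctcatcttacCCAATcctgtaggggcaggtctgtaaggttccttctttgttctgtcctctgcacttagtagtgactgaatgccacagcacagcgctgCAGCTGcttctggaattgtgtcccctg
Ly6c1, chr15:75048788-75049087, minus strand: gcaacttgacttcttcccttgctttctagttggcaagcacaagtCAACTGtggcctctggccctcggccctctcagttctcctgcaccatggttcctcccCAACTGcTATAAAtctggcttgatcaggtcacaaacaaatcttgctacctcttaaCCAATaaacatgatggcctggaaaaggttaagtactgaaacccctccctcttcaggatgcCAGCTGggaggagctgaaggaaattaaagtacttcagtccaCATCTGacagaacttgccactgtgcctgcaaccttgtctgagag
Cd34, chr1:194938571-194938870, plus strand: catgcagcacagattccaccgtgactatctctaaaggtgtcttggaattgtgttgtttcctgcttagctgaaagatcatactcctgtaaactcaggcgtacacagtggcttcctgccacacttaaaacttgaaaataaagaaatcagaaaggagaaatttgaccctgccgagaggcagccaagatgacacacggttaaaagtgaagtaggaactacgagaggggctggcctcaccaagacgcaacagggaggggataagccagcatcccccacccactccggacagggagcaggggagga
The Pi16 window held 1 CCAAT and 1 CANNTG match, the Ly6c1 window 1 TATAAA, 1 CCAAT and 4 CANNTG matches, and the Cd34 window none of these letters. None of the 5 motifs was thus held by all 3 windows.

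The first question was which single cells carried the genes together. In 3 of 91 cells all 7 members were at or above 100 CPM (counts of the gene per 1000000 counts of the cell): well G10 of CD61+ plate 2, well A11 of VCAM1+ plate 3 and well B5 of VCAM1+ plate 2. One more cell, well G11 of VCAM1+ plate 2, carried 4 members at that level, and no cell carried 5 or 6. Of the remaining cells, 2 carried 3 members, 23 carried 2, 34 carried 1 and 28 carried none. By the rule of at least 4 of 7 members at 100 CPM, the joint high cells were thus 1 of 39 CD61+ cells, 0 of 40 CD61- cells and 3 of 9 VCAM1+ cells. The rule itself used these values; the nearest cells outside it, with 3 members each, were well D3 of CD61+ plate 2 and well C3 of CD61+ plate 1.

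Cell G10 held 13127 CPM of Dcn, 18714 CPM of Gsn, 4189 CPM of Ly6c1, 12226 CPM of Ly6a, 3155 CPM of Cd34, 2430 CPM of Clec3b and 12891 CPM of Pi16. Cell A11 held 8161 CPM of Dcn, 16268 CPM of Gsn, 4503 CPM of Ly6c1, 4840 CPM of Ly6a, 1698 CPM of Cd34, 998 CPM of Clec3b and 10328 CPM of Pi16. Cell B5 held 16619 CPM of Dcn, 10638 CPM of Gsn, 1046 CPM of Ly6c1, 1756 CPM of Ly6a, 1113 CPM of Cd34, 550 CPM of Clec3b and 441 CPM of Pi16. Cell B5 was the lowest of these 3 cells for 6 members (Gsn, Ly6c1, Ly6a, Cd34, Clec3b and Pi16) and the highest for Dcn. Together the members made up 66731 CPM of the library of G10, 46796 CPM of that of A11 and 32163 CPM of that of B5, the 3 highest sums among the 91 cells.

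Cell G11 differed from these cells in kind of member. It held 1619 CPM of Dcn, 1490 CPM of Gsn, 8605 CPM of Ly6c1 and 5249 CPM of Ly6a, with no count of Cd34, Clec3b or Pi16. Its Ly6c1 level was the highest of all 91 cells. The library of G11 had 1152643 counts and 1185 genes as deposited, the fewest genes of any cell, so fewer genes could be seen there than in the others. The libraries of G10, A11 and B5 had 1902433, 5279501 and 6702475 counts and 5231, 4834 and 6374 genes, in that order, against medians of 2060906 counts and 4402 genes over the 91 cells, and B5 was the deepest library.

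**Figure D1:**
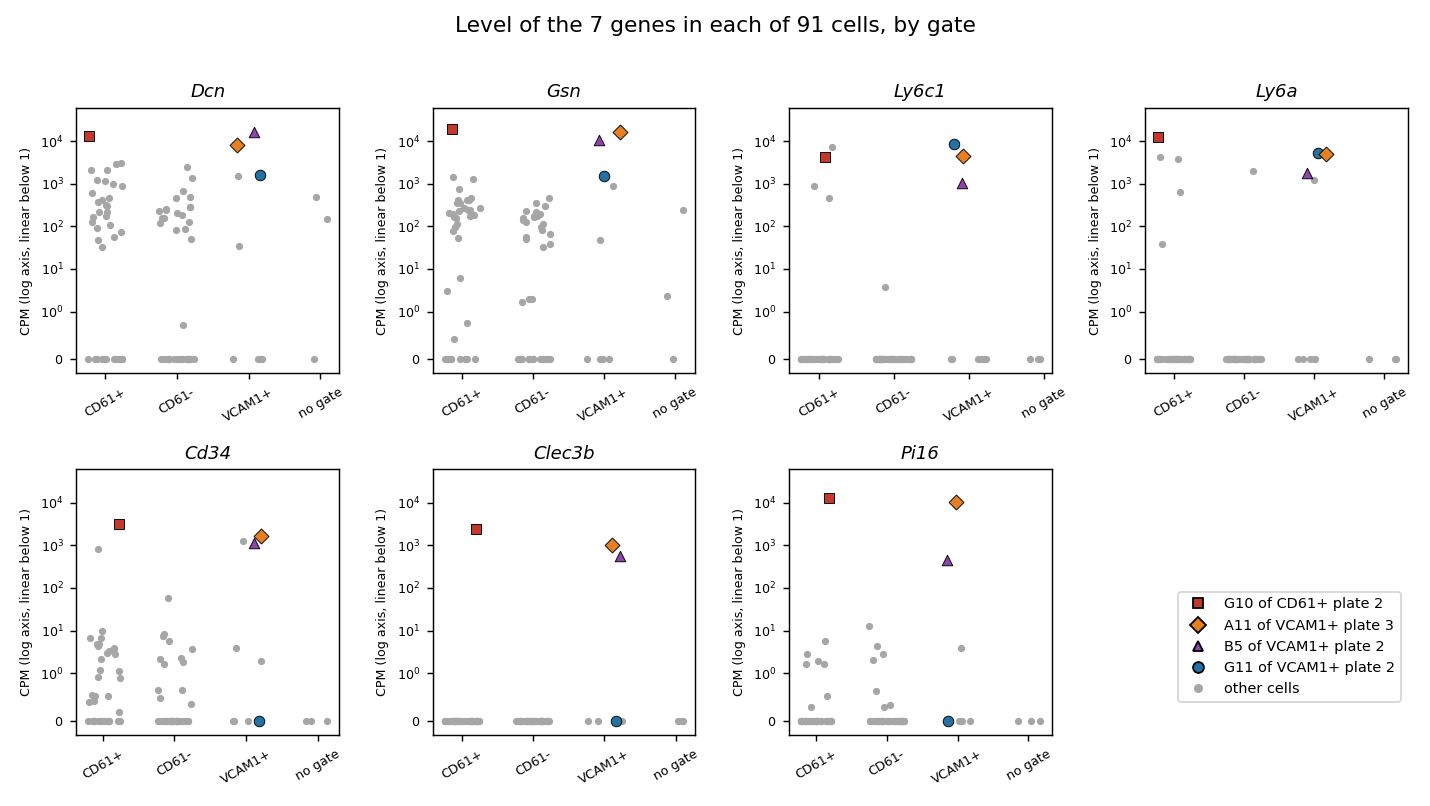
Each panel plots 1 gene, with CPM on a log axis that is linear below 1, and each point is 1 cell, placed by gate; coloured symbols are the 4 joint high cells and grey points are the other 87 cells. Grey points reach 3082 CPM for Dcn and 1462 CPM for Gsn, Cd34 and Pi16 have grey points mostly under 10 CPM, and Clec3b has none above 0.

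Outside the joint high cells the members fell into distinct patterns. Dcn and Gsn were widely counted. Dcn had a count in 49 of the other 87 cells, of which 39 reached 100 CPM; the median of those with a count was 243 CPM and the highest was 3082 CPM, in well B1 of CD61+ plate 1. Gsn had a count in 56 of the 87 cells, of which 37 reached 100 CPM; the median of those with a count was 172 CPM and the highest was 1462 CPM, in well A3 of CD61+ plate 2. The 3 cells with all members thus lay above every other cell for both genes, with a gap between B1 and the lowest of them, A11, for Dcn and between G11 and the lowest of them, B5, for Gsn.

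Cd34, by contrast, was mostly at the edge of detection elsewhere. It had a count in 39 of the other 87 cells, but in 35 of these the count was 20 or lower, and the median of those 39 cells was 2.32 CPM. Only well C4 of VCAM1+ plate 2 (1238 CPM) and well C3 of CD61+ plate 1 (836 CPM) reached 100 CPM, and the next cell, well C9 of CD61- plate 1, had 57.2 CPM. With every cell thinned to 500000 counts, 27 of the 91 cells had a Cd34 count, against 42 at full depth.

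Pi16 and Clec3b were the most restricted members. Pi16 had a count in 15 of the other 87 cells, each time between 1 and 18 counts and at most 13.1 CPM (well F8 of CD61- plate 2). Part of the Pi16 transcript sequence is shared with many other genes, as given above; whether this contributes to these low counts was not tested. Clec3b had 0 counts in all 88 cells other than G10, A11 and B5, which allows a share of up to 3.41% of cells with a count (3 of 88; the exact 95% interval reaches 4.11%).

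Ly6c1 and Ly6a were at 0 in most cells. Ly6c1 had a count in 4 and Ly6a in 6 of the other 87 cells, and both were at 0 in every remaining cell. Ly6a was counted in all 8 cells with a Ly6c1 count, and Ly6a without Ly6c1 was found in 2 cells, well G9 of CD61+ plate 1 (650 CPM) and well C4 of VCAM1+ plate 2 (1251 CPM). The other 4 cells were C3 and E10 of CD61+ plate 1, D3 of CD61+ plate 2 and A6 of CD61- plate 2. Cell C3 held 7045 CPM of Ly6c1 and 4179 CPM of Ly6a, and E10 held 873 CPM of Ly6c1 and 3796 CPM of Ly6a. D3 held 454 CPM of Ly6c1 and 37.7 CPM of Ly6a, and A6 held 1964 CPM of Ly6a and 3.69 CPM (7 counts) of Ly6c1. Other family members varied among the carriers. Ly6i was at 1431 CPM in A6 and at most 41.5 CPM in the other cells, and Ly6c2 reached at most 10.7 CPM in any carrier. Ly6e was at 3258 CPM in C3, 5008 CPM in E10, 780 CPM in G9 and 1511 CPM in A6, and Plaur, the urokinase receptor gene, at 1394 CPM in C4.

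The share of summed CPM held by the 3 highest cells was taken for each member. Over the 88 cells with a gate, the 3 highest cells held 56.5% of the summed CPM of Dcn, 75.7% of Gsn, 75.4% of Ly6c1, 62.1% of Ly6a, 74.3% of Cd34 and 99.8% of Pi16. For Dcn, Gsn, Clec3b and Pi16 these were the same cells, G10, A11 and B5. Among the 6 members with a count in at least 5 cells, 1 (Pi16) passed 80%, as did 12.9% of 14706 genes with the same filter. With 1 of 6 near that share, nothing about the members is read from it. Clec3b, counted in 3 cells, did not enter that count.

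The members were next set beside marker lists in the joint high cells, as a description. These lists were chosen with earlier results of these data known, and the cells were picked by the members. The label of fibroblast genes is therefore not checked independently here. The adventitial fibroblast list, from which the members were left out, had 25 genes in the table; 20 had a count in G10, 20 in A11, 23 in B5 and 9 in G11, against at most 12, and a median of 8, in the other 87 cells. In summed level the list was at 52424 CPM in G10, 29601 CPM in A11, 23949 CPM in B5 and 11484 CPM in G11, against a median of 7734 CPM and a highest of 32748 CPM in the other cells. The sum thus overlapped between these cells and the others, while the number of list genes counted did not overlap for G10, A11 and B5. Over the whole library G10, A11 and B5 had 5231, 4834 and 6374 genes, ranks 17, 32 and 4 of 91, so their total genes did overlap with the others. The part of depth in the list counts was not tested. Gpx3, which encodes a secreted peroxidase, is 1 gene that the other stromal cells carried as well, at a median of 6095 CPM in the 81 cells without Ly6 counts, against 243 CPM in G10, 2326 CPM in A11, 0.597 CPM in B5 and 0 in G11.

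Some list genes showed the separation more sharply, and others did not show it. Mfap5, a microfibril protein gene, was at 26561 CPM in G10, 8277 CPM in A11 and 3077 CPM in B5, against at most 4.17 CPM in any other cell, and it was at 0 in G11. Igfbp6, which encodes a binding protein of insulin-like growth factors, was at 13661 CPM in G10, 6424 CPM in A11, 8904 CPM in B5 and 1885 CPM in G11, against at most 0.391 CPM elsewhere. Col3a1, the collagen type III chain gene, was at 3511 CPM in G10, 3564 CPM in A11 and 5343 CPM in B5, against at most 1122 CPM elsewhere. Cd248, which encodes a stromal surface sialomucin, was at 3378 CPM in G10 and 826 CPM in A11, while B5 at 194 CPM lay within the range of the other cells, whose highest was 204 CPM. S100a4 was at 7484 CPM in G11 and 2413 CPM in B5 and at 0 in G10 and A11.

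Counted over the whole table, the lowest of G10, A11 and B5 lay above every other cell for 22 of 16088 genes with a count in at least 3 cells, or 0.137%. This description was added after the values were seen, and the cells were picked by the members, so nothing is read from the 4 members among the 22 (Dcn, Gsn, Clec3b and Pi16). Of the 23 adventitial list genes with enough counts, 6 were among them: Mfap5, Col3a1, Fbln2, Igfbp6, Sema3c and Tnxb. Tnxb was near the detection limit, at 0.526 CPM in G10, 18 CPM in A11 and 7.01 CPM in B5, with no count elsewhere. No gene of the endothelial, CAR, osteolineage, smooth muscle or blood cell lists was. The remaining 12 included Myoc, which encodes myocilin (2708 CPM in G10, 379 CPM in A11 and 3243 CPM in B5), Pthlh, which encodes a parathyroid hormone-like peptide (445, 263 and 1229 CPM in the same order), and Wnt2, a secreted Wnt ligand gene (264, 1013 and 2.69 CPM). All 3 of these were at 0 in the other 88 cells.

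Some markers of other cell types were at or near 0 in the joint high cells, and others were not. Cdh5, Kdr, Emcn, Egfl7 and Esam, which define endothelium, were at 0 in all 4 cells, and Pecam1 was at 0.597 CPM in B5 and at 0 in the other 3. The median of each of these genes was also 0 in the 81 cells without Ly6 counts. The endothelial list had counts of 5 of 24 genes in G10, 4 in A11, 5 in B5 and 1 in G11, against a median of 3 in the cells outside the joint set. Its sum was 2313 CPM in G10, 42.4 CPM in A11, 609 CPM in B5 and 1048 CPM in G11. The median outside the joint set was 128 CPM, so G10, B5 and G11 lay above it and A11 below. In G10 the sum came largely from Ramp2 at 1792 CPM, and in G11 from Cav1 at 1048 CPM. Of the CAR genes, Cxcl12 was at 0.526 CPM in G10, 0 in A11, 0.597 CPM in B5 and 0 in G11, against a median of 17636 CPM in the 81 cells without Ly6 counts. Adipoq, Kitl, Hp and Ebf3 were at 0 in the 4 cells, but other genes of the list were not. Igfbp4 was at 3845 CPM in G10, 1109 CPM in A11, 545 CPM in B5 and 0 in G11. Igfbp5 was at 2184, 21.6, 1209 and 221 CPM in the same order. The median in those 81 cells was 3736 CPM for Igfbp4 and 468 CPM for Igfbp5. Lepr, the leptin receptor gene, was at 1212 CPM in B5, against 4.34 CPM in G11 and 0 in G10 and A11. Of the 20 CAR genes, 10, 9, 12 and 3 had a count in G10, A11, B5 and G11, against a median of 19 elsewhere. The summed CAR list was at 6551 CPM in G10, 1413 CPM in A11, 3663 CPM in B5 and 545 CPM in G11. Its median elsewhere was 37587 CPM.

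Among osteolineage genes, Bglap was at 0 in the 4 cells and Spp1 at 0.758 CPM in A11 and at 0 in the other 3. Matrix genes shared by bone and fibroblasts were counted: Col1a2 was at 842 CPM in G10, 1362 CPM in A11 and 3709 CPM in B5, and Sparc at 8833, 5619 and 14170 CPM in the same cells. The summed osteolineage list, 10299 CPM in G10, 7491 CPM in A11, 20313 CPM in B5 and 2250 CPM in G11, lay on either side of the median of the other cells, 13189 CPM. The hematopoietic list of 15 genes summed to 0.526 CPM in G10, 0.379 CPM in A11, 0.746 CPM in B5 and 0 in G11, and the smooth muscle list to at most 0.526 CPM. The erythroid, macrophage and Schwann cell lists were at 0 in the 4 cells, and the neutrophil list reached 1.64 CPM, in B5. The other cells were low too, with medians of 0 for the erythroid and macrophage lists and 0.974 CPM for the neutrophil list. Their medians were 11.6 CPM for the Schwann cell list and 3.97 CPM for the hematopoietic list. Only 5 of 8 erythroid, 4 of 9 macrophage, 4 of 8 Schwann cell and 4 of 8 neutrophil genes were in the table. These low sums therefore hardly set the 4 cells apart. The B and plasma cell list summed to 17.3, 72.5, 58.6 and 319 CPM in G10, A11, B5 and G11, each from 1 gene, against a median of 197 CPM elsewhere. Comp, which the chondrocyte list holds, was at 845 CPM in B5 and at 0 in the other 3. Itga2b, the CD41 gene, was at 88.3 CPM in G10 and 32.7 CPM in B5, against at most 14.8 CPM elsewhere. The megakaryocyte and platelet list had 3 of its 6 genes in the deposited table, without Pf4 and Ppbp. It summed to 94.6, 5.87, 32.8 and 0 CPM in G10, A11, B5 and G11, against a highest of 154 CPM elsewhere.

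**Figure D2:**
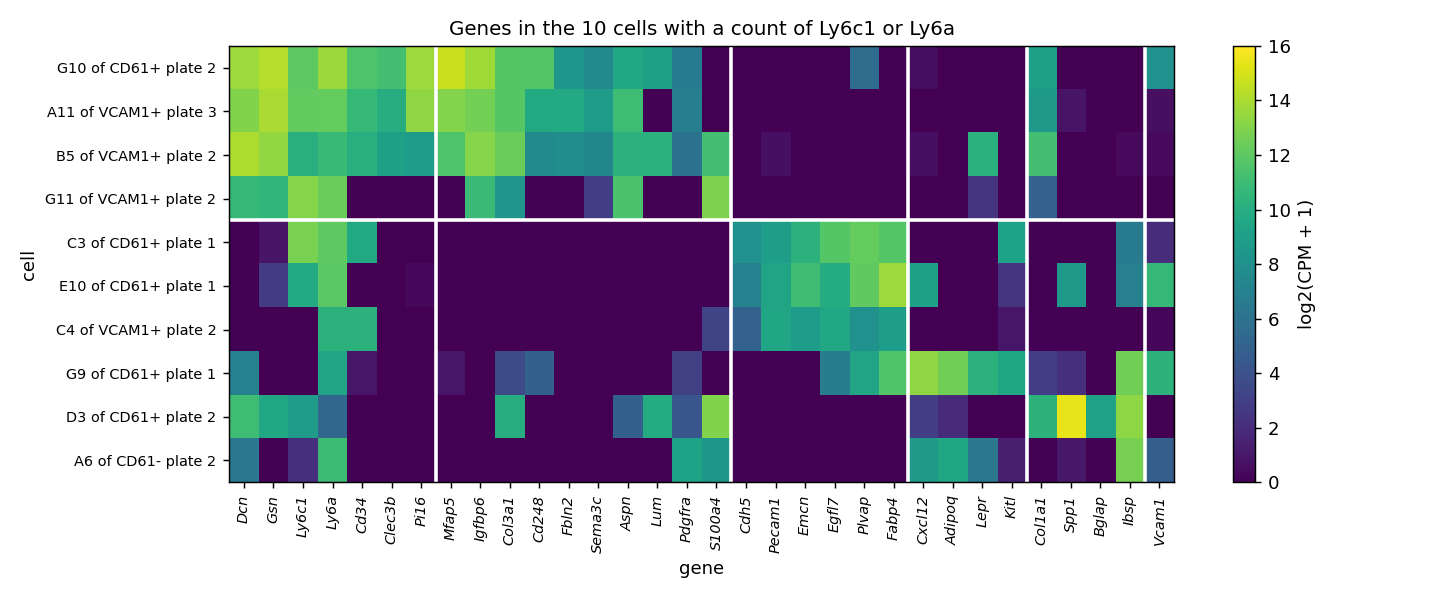
Rows are the 10 cells with a count of Ly6c1 or Ly6a, the 4 joint high cells on top, columns are genes grouped by white lines (members, fibroblast, endothelial, CAR, osteolineage and Vcam1), and colour is log2(CPM + 1); the genes shown were chosen after their values were seen. G10, A11 and B5 are bright over all 7 members, G11 over 4 of them, and of these 10 cells Cdh5 is above 0 only in C3, E10 and C4.

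The 6 other Ly6 carriers had varied marker profiles. C3 and E10 of CD61+ plate 1 and C4 of VCAM1+ plate 2 had counts of 22, 19 and 17 of the 24 endothelial genes, with the junction gene Cdh5 at 277, 130 and 31.2 CPM, and no Dcn count. Cell G9 of CD61+ plate 1 had counts of all 20 CAR genes, with Cxcl12 at 10388 CPM, along with 13 endothelial genes, but no Cdh5 count. Cell D3 of CD61+ plate 2 held 2083 CPM of Dcn and 757 CPM of Gsn beside 43191 CPM of Spp1, 585 CPM of Bglap and 2756 CPM of Acta2, the smooth muscle actin gene. Cell A6 of CD61- plate 2 held 711 CPM of Adipoq, 23223 CPM of Hp and 84.5 CPM of Dcn, with 2007 genes counted. Cd34 divided these cells as well: C3 and C4 carried it, while E10, D3 and A6 had no count and G9 had 0.917 CPM.

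Several of the cells outside the joint set with most Dcn or Gsn also carried genes of other classes. B1 of CD61+ plate 1, the highest for Dcn, held 17409 CPM of Cxcl12 and 5214 CPM of Adipoq. F7 of CD61+ plate 1, with 2878 CPM of Dcn and 1320 CPM of Gsn, held 7647 CPM of Spp1 and 9959 CPM of Col1a1. A3 of CD61+ plate 2, the highest for Gsn, held 54291 CPM of Spp1 and 4757 CPM of Bglap. B4 of VCAM1+ plate 2, with 897 CPM of Gsn, did not: Cxcl12, Adipoq, Bglap, Col1a1 and Col3a1 were at 0 there and Spp1 was at 0.511 CPM. Across the 87 cells without the joint high cells, Spearman's rho of Dcn was 0.56 with Col1a1, 0.37 with Spp1 and -0.26 with Adipoq, and that of Gsn was 0.43 with Col1a1, 0.50 with Spp1 and -0.30 with Adipoq. These are descriptions across cells that share plates and differ in depth.

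Pairs of members were correlated over the 91 cells on log2(CPM + 1), again only as a description, since cells of a plate share processing. Ly6c1 and Ly6a had Pearson's r of 0.86 with the joint high cells and 0.72 without them, the highest of the pairs that could be computed without them; shared sequence touches both genes. Clec3b and Pi16 had r of 0.94 over the 91 cells, but Clec3b had no count outside 3 of them. Dcn and Gsn had r of 0.39 over 91 cells and 0.26 over the 87 without the joint high cells. Spearman's rho of this pair, without those cells, was 0.32 and 0.64 on CD61+ plates 1 and 2, and 0.18 and -0.05 on CD61- plates 1 and 2. For the pairs of Pi16 with Dcn and Gsn, r was 0.28 and 0.33 over the 91 cells but -0.15 and -0.19 without the joint high cells. Those positive values thus rested on joint high cells, among which G10, A11 and B5 had a Pi16 count and G11 had none. No cell outside the joint high cells carried Dcn and Cd34 together at 100 CPM, while 21 carried Dcn and Gsn together at that level. Of those 87 cells, 2 reached 100 CPM of Cd34, against 39 for Dcn and 37 for Gsn. The contrast therefore says little about the pairs.

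**Figure D3:**
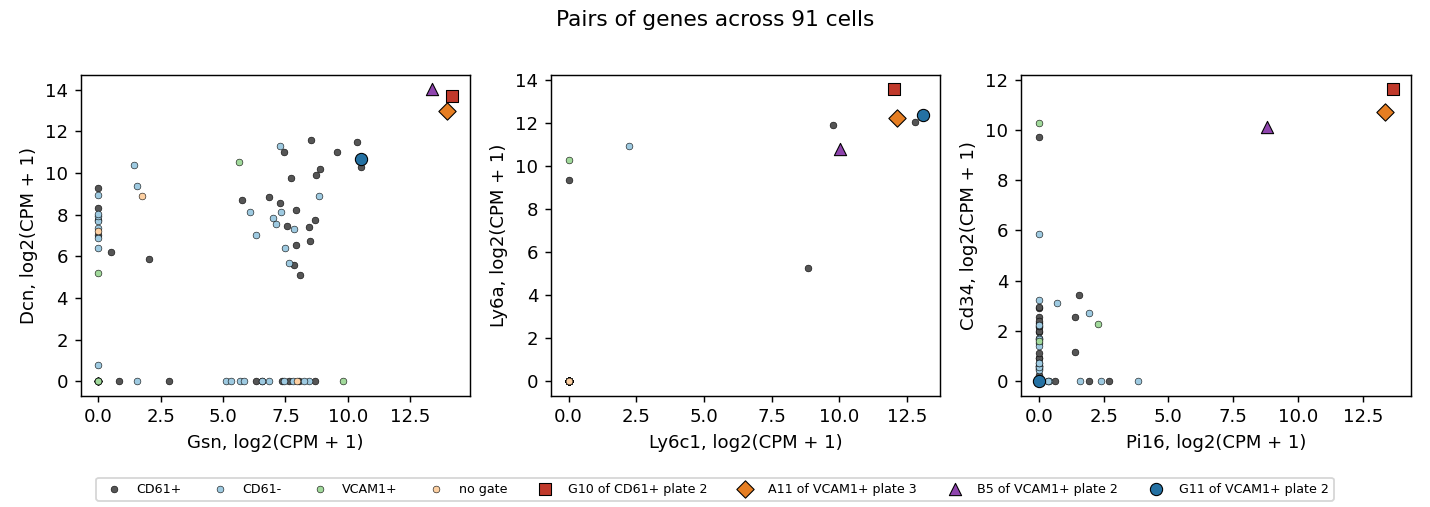
Each panel plots 2 members against each other as log2(CPM + 1), with 1 point per cell; small points are coloured by gate and large symbols are the joint high cells. Dcn and Gsn spread along both axes in many cells, Ly6a and Ly6c1 are above 0 in 10 cells at most, and in the panel of Cd34 and Pi16 only G10, A11 and B5 are high on both axes.

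The genes whose pattern was most like the mean log2(CPM + 1) of the members, among genes with a count in at least 5 cells, were Igfbp6 (Pearson's r 0.87 over 91 cells), Aspn (0.85), Sema3c (0.85), Mfap5 (0.84), Fbln2 (0.80), Ndrg4 (0.80), Tmod2 (0.77), Ablim1 (0.75), Ackr3 (0.75), Fez1 (0.74), Osr1 (0.73) and Ltbp4 (0.73). Without the joint high cells none of these exceeded 0.34. Aspn, which encodes asporin, a relative of decorin, was counted in 5 cells: 775 CPM in G10, 2118 CPM in A11, 1252 CPM in B5, 2762 CPM in G11 and 29.5 CPM in D3. Ackr3, an atypical receptor that binds CXCL12, was at 265, 433, 101 and 106 CPM in G10, A11, B5 and G11, against at most 84.8 CPM elsewhere. Osr1, a transcription factor gene of connective tissue, was at 496 CPM in A11 but at 38.9 CPM in G10 and 73 CPM in B5, within the range of the other cells, whose highest was 77.9 CPM.

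Relatives of the members were looked at by family. Among 12 other small leucine-rich proteoglycan genes in the table, 7, 5, 7 and 5 had a count in G10, A11, B5 and G11, against a median of 5 in the other cells. Their sum was 2418, 3538, 6526 and 3532 CPM in the same cells, against a median of 2181 CPM and a highest of 6792 CPM in the others. Lum, which encodes lumican, was at 582 CPM in G10, 1213 CPM in B5 and 0 in A11 and G11. The 4 gelsolin relatives in the table summed to 1699, 567, 1125 and 0 CPM in G10, A11, B5 and G11, against a median of 72.4 CPM and a highest of 1377 CPM elsewhere. Of these, Capg, an actin capping gene, was at 1534 CPM in G10, 417 CPM in A11 and 506 CPM in B5, against 1148 CPM in C4 of VCAM1+ plate 2. The Ly6 relatives summed to 803, 474, 117 and 18.2 CPM in G10, A11, B5 and G11, against a median of 329 CPM and a highest of 30001 CPM elsewhere, and 6, 7, 5 and 3 of 15 had a count. The 6 relatives of Pi16 with a CAP domain summed to 18.9, 128, 324 and 0 CPM in G10, A11, B5 and G11, and the 3 lectin relatives of Clec3b to 46.8, 164, 441 and 8.68 CPM. Podxl2, the measured relative of Cd34, was at 6.06 CPM in A11 and at 0 in the other 3.

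The index-sort record was then read for the joint high cells, each by its own value, since a mean over cells picked by their RNA would have no meaning as a group. Cells G10 and B5 were large and granular. Side scatter area (SSC-A), a measure of granularity, was 150109 in B5, the highest of all 91 cells, and 121680 in G10, the second highest, against a median of 41888. Forward scatter area (FSC-A), a measure of size, was 211100 in G10 (rank 3 of 91) and 200596 in B5 (rank 4), against a median of 124221. A11 and G11 were nearer to the others, with FSC-A of 157998 (rank 17) and 139703 (rank 33), and SSC-A of 50070 (rank 26) and 54589 (rank 21). Forward scatter width (FSC-W), which is also raised when 2 cells pass together, was 98413 in G10 (rank 4 of 91) and 98911 in B5 (rank 3), against 85184 in A11 and 83883 in G11 and a median of 83159. Whether G10 and B5 hold more than 1 cell was not tested.

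In the channels of the gate, G10 had a CD61 intensity of 1990 (rank 18 of the 39 CD61+ cells, whose lowest was 1567) and a VCAM1 intensity of 686 (rank 22 of 39). CD61 was 476 in A11, 994 in B5 and 1438 in G11, all below the lowest CD61+ cell. VCAM1 was 21 in A11 and 94 in B5, ranks 90 and 87 of 91, and 646 in G11, at rank 45. The Vcam1 transcript was at 276 CPM in G10, 0.568 CPM in A11, 0.298 CPM in B5 and 0 in G11, against a median of 702 CPM in the 81 cells without Ly6 counts. Itgb3, the gene of the CD61 protein, was at 23.7 CPM in G10 and at 0 in A11, B5 and G11, and 20 of the 91 cells had a count of it.

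The other channels did not set these cells apart as a group. CD51, the integrin alpha V chain, was 1556 in G10 (rank 3 of 91), 46 in A11 (rank 81), 11 in B5 (rank 87) and 201 in G11 (rank 46), while its gene Itgav was at 91.5, 134, 164 and 0 CPM in the same cells. CD200, a surface glycoprotein, was 463 in G10 (rank 29 of 39 in its gate, against a gate median of 2584), 161 in A11, 1818 in B5 and 272 in G11. CD71, the transferrin receptor, was 992 in G10 (the highest on its plate of 22), 871 in A11 (the highest of the 9 VCAM1+ cells), 496 in B5 and 290 in G11. CD45 was 1617 in G10 (rank 4 of 91), 195 in A11, 1139 in B5 and 429 in G11, with no count of its gene Ptprc in any of them. The Ter119/CD41 channel was 2288 in G10 (rank 7 of 91), 711 in A11, 1081 in B5 and 1592 in G11. The DNA dye was 77835 in G10, 63818 in A11, 43757 in B5 (rank 89 of 91) and 58475 in G11. In G10 the CD51, CD45, CD71 and Ter119/CD41 channels were thus high beside high scatter, and a link between them was not tested.

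**Figure D4:**
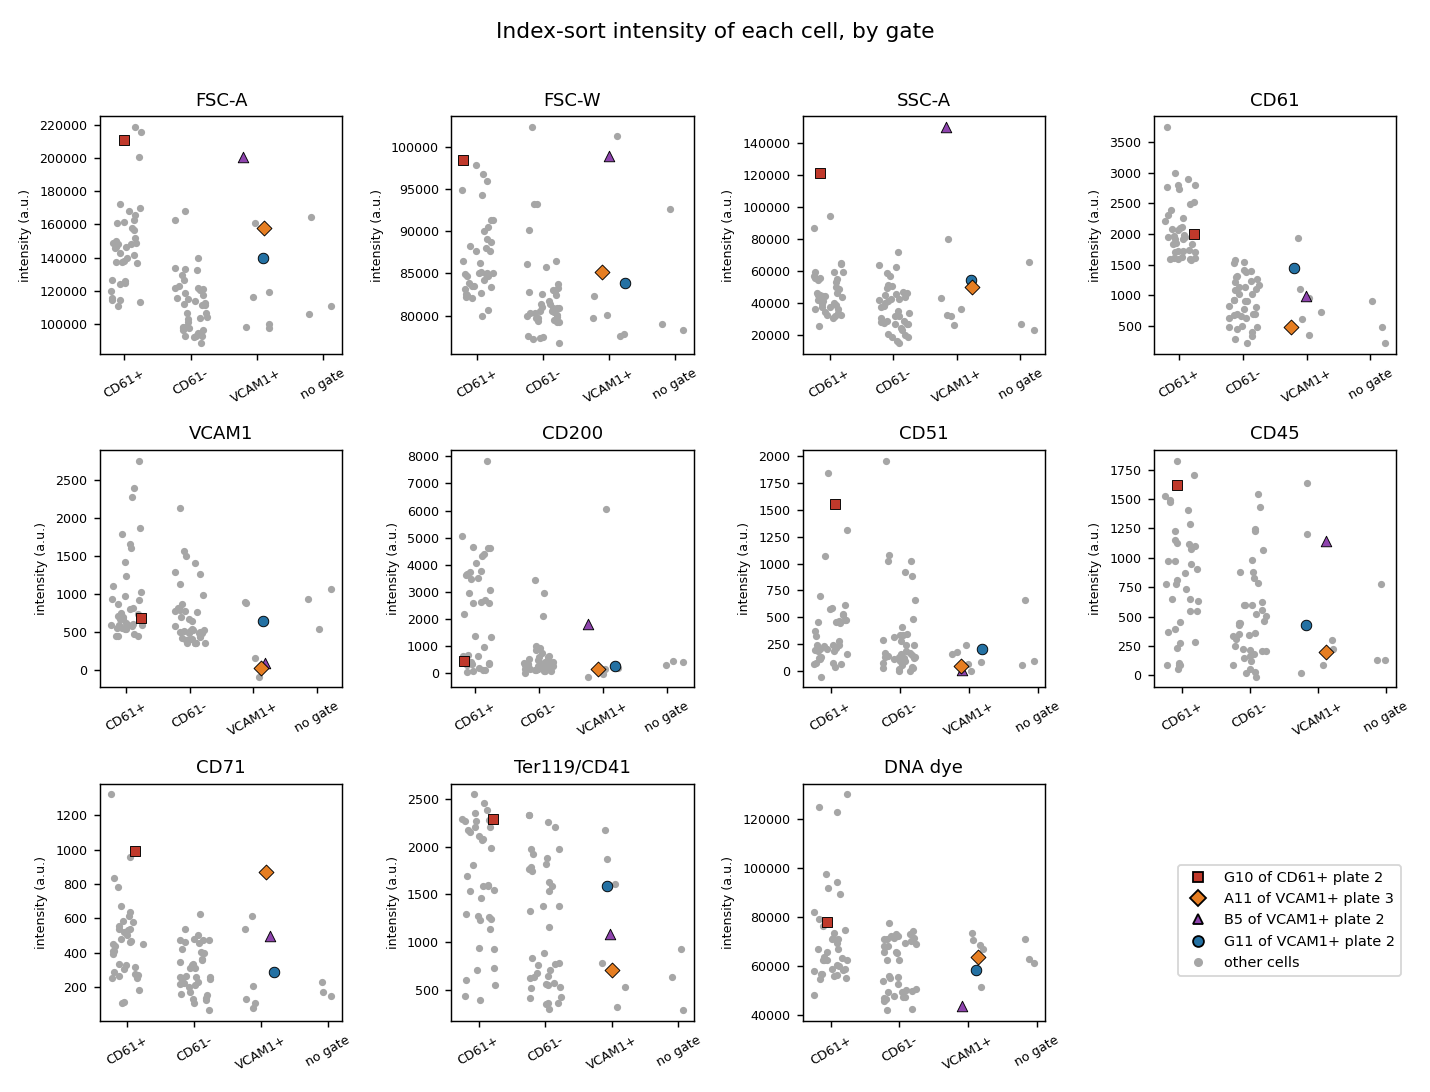
Each panel plots 1 index channel as intensity in arbitrary units on a linear axis, with 1 point per cell placed by gate; coloured symbols are the joint high cells. G10 and B5 sit at the top of side scatter, A11 and B5 at the bottom of VCAM1, and in the CD61 panel G10 lies in the middle of the CD61+ cells.

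The last comparison was between the gates, from the summed counts of a gate, scaled to the total of that gate. In bulk sums of this kind, more cells that carry a gene and more RNA per cell cannot be told apart, which is why the cells are given beside them. Of the 7 members, 6 passed the filter on low values (10 counts in sum, found in 5 or more of the 79 cells), and each of these was over 2-fold higher in CD61+ cells; Clec3b did not enter. Among 14063 genes tested the same way, 19.4% were over 2-fold higher and 17.3% over 2-fold lower in CD61+ cells. Since the members were chosen with these cells known, and G10 is a CD61+ cell, the count supports nothing about the gates.

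Dcn was at 918 CPM in CD61+ cells and 191 CPM in CD61- cells, a ratio of 4.8 (exact interval 4.72 to 4.88), and by plate at 710 and 1135 CPM in CD61+ cells and 274 and 79.6 CPM in CD61- cells. Its share of cells with a count was 66.7% in CD61+ cells (26 of 39, interval 49.8 to 80.9) and 50% in CD61- cells (20 of 40, interval 33.8 to 66.2). With 1 sample a gate, nothing is concluded from the overlap of these intervals. Gsn was at 751 CPM in CD61+ cells and 81.7 CPM in CD61- cells, a ratio of 9.2 (8.98 to 9.42), and G10 alone gave 61.8% of the CD61+ counts. Without G10 the ratio was 3.18 for Dcn and 3.6 for Gsn. For Dcn, well F3 of CD61- plate 1 held 41.6% of the CD61- counts, and without F3 the ratio was 7.96. All these are 95% intervals. Those of ratios cover counting error only, and reads are not independent molecules. Those of shares cover the sampling of cells only and treat the cells of a gate as independent.

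Pi16 rested almost wholly on G10. It was at 320 CPM in CD61+ cells and 0.425 CPM in CD61- cells, with 99.9% of the CD61+ counts from G10, and without G10 it was at 0.267 CPM in CD61+ cells and 0.425 CPM in CD61- cells, the opposite direction, from 20 and 39 counts. Without well F8 of CD61- plate 2, which held 46.2% of the CD61- counts, the ratio was 1379, against 754 with all cells. A count was found in 8 of 39 CD61+ cells and 7 of 40 CD61- cells. Cd34 was at 93.8 CPM in CD61+ cells and 1.97 CPM in CD61- cells, with 83.5% of the CD61+ counts from G10, and at 15.9 against 1.97 CPM without it. The ratio was 47.6 with all cells, 8.07 without G10 and 102 without well C9 of CD61- plate 1, which held 54.1% of the CD61- counts. Its share of cells with a count was 61.5% of CD61+ cells (44.6 to 76.6) and 32.5% of CD61- cells (18.6 to 49.1); thinned to 500000 counts, 41% and 15%. The difference was one of plates too: Cd34 was counted in 11 of 17 and 13 of 22 cells of the CD61+ plates, and in 11 of 24 and 2 of 16 cells of the CD61- plates.

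Ly6a was at 555 CPM in CD61+ cells, from 5 cells, and 40.5 CPM in CD61- cells, from A6 alone, and at 258 against 40.5 CPM without G10. The ratio was 13.7 with all cells and 6.38 without G10; without A6 no CD61- count was left. Ly6c1 was at 272 CPM in CD61+ cells, from 4 cells, and 0.0762 CPM in CD61- cells, 7 counts in A6, a ratio of 3569 (1732 to 8878); without G10 the ratio was 2262, without C3 it was 2027, and without A6 no CD61- count was left. Clec3b was at 60.3 CPM in CD61+ cells, all from G10, and had 0 counts in the 40 CD61- cells, which allows a share of up to 7.5% of cells (3 of 40; the exact 95% interval reaches 8.81%); set against 3 counts over that gate, it was at least 1845-fold higher. In the 9 VCAM1+ cells, the summed level was 4760 CPM for Dcn, 4683 CPM for Gsn, 1172 CPM for Ly6c1, 1404 CPM for Ly6a, 627 CPM for Cd34, 258 CPM for Clec3b and 1655 CPM for Pi16. Over the 6 of these cells other than A11, B5 and G11 it was 419 CPM for Dcn, 176 CPM for Gsn, 250 CPM for Ly6a, 249 CPM for Cd34 and 0.37 CPM for Pi16, with Ly6c1 and Clec3b at 0.

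The adventitial fibroblast list had 18 genes that entered the comparison of gates. Of these, 8 were over 2-fold higher and 4 over 2-fold lower in CD61+ cells, with a median log2 ratio of 0.80, against 0.01 over all 14063 genes. G10, a CD61+ cell picked by the members, had the highest sum of this list of all cells, 52424 CPM. List ratios without G10 are not given, so nothing about the gates is read from these or the following list values. The small leucine-rich proteoglycan relatives had a median of -0.25 over 11 genes, the Ly6 relatives 1.26 over 11, and the gelsolin relatives 1.94 over 4. The endothelial list, whose sums of 20254 CPM in C3 and 29352 CPM in E10 stood beside Ly6a and Ly6c1 in those cells, had a median of 1.38 over 14 genes, with 7 over 2-fold higher and 0 over 2-fold lower, the osteolineage list 1.10 over 19, and the CAR list -1.03 over 20. The part of these cell types in the members' ratios was not tested.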

How the data were processed

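Each library is 1 index-sorted cell made by Smart-seq2, per the labels' protocols. Per the submitters' processing notes, kallisto 0.43.0 and R 3.5.1 were used on build mm10; their annotation: not given in the sources used here. Gene values were deposited by the authors in the unit of expected counts (estimated, without normalisation), and 0 were not whole. The authors deposited each index channel as a linear intensity, and reads and genes per cell are counts as deposited; 35 columns of the cell table were not used. Total counts ran from 507713 to 6702475 per cell.

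The members, lists and rules were chosen with earlier results of these data known. CPM was the count over the cell total. Named genes were the members, the 12 most correlated genes (mitochondrial, ribosomal, predicted and Rik genes left out), genes of the index-sorted proteins and genes of the marker and family lists. Other genes, such as Myoc, Pthlh, Wnt2 and the genes singled out in the closing parts, were chosen after their values were seen. Intervals are exact (Clopper-Pearson, or the binomial split of 2 sums) at 95%; the share that a count of 0 allows is 3 over the number of cells. Sums under 3 counts over a gate were raised to 3 before a ratio, and no ratio was taken with both at or under it. No cell was removed and no doublet caller was run. Alternatives used edgeR 4.0.16 and DESeq2 1.42.0 scaling (R 4.3.3); the steps were tested on simulated data. Other tools were matplotlib 3.10.9, scipy 1.17.1, pandas 2.3.3, numpy 2.4.6 and Python 3.11.15.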

Additional observations from a re-analysis of the deposited data

Results flagged for a closer look

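In the 9 cells of the VCAM1+ gate, 18 measures (7 member levels and 11 index channels) were searched for a cell far from the others. Such a cell was found for 4 measures. A chance rate of about 1 in 20 groups does not apply here. The members were chosen with their high levels in these cells known, and all 18 measures share the same 9 cells. The number 4 is therefore not set against chance. Dcn was 16619 CPM in B5, with the next cell, A11, at 8161 CPM. Pi16 was 10328 CPM in A11, with the next cell, B5, at 441 CPM. SSC-A was 150109 in B5, with the next cell at 79949. CD200 was 6042 in G1 of VCAM1+ plate 2, which held 1492 CPM of Dcn, 48.7 CPM of Gsn and 297552 CPM of Bglap, with the next cell, B5, at 1818. In the 3 cells without an assigned gate, which entered no comparison, Dcn reached 479 CPM and Gsn 247 CPM, while Ly6c1, Ly6a, Cd34, Clec3b and Pi16 were at 0.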

How the results depend on the processing

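The joint high cells numbered 4, and between 3 (at least 5 of 7 members) and 6 (at least 3 of 7) under the 6 alternatives; the 3 cells with all members were kept in each. Members with counts mostly from 3 cells numbered 1, but 2 with no filter (Clec3b added) and 2 with raw counts. Members over 2-fold higher in CD61+ cells numbered 6, and 3 to 6 when 1 plate was left out (3 without CD61+ plate 2, where 4 entered). The log2 ratio of Pi16 was 9.56, but -0.73 without CD61+ plate 2 and -0.67 without the joint high cells (or without G10), since nearly all its CD61+ counts came from G10. Leaving out single cells, an alternative chosen after seeing the data, turned the direction of none of the other 5 members tested. Without the joint high cells, r turned negative for Dcn with Ly6c1 (-0.06), Ly6a (-0.08), Cd34 (-0.21) and Pi16 (-0.15), for Gsn with Ly6c1 (-0.04), Ly6a (-0.19), Cd34 (-0.11) and Pi16 (-0.19), and for Pi16 with Ly6c1 (-0.05) and Ly6a (-0.07). Cells with at least 4 counts numbered 26 for Cd34 and 11 for Pi16, against 42 and 18 with any count. No paired analysis was possible because no result comes from a test and plate numbers pair no animals. With 1 sample a gate, spread between animals is unknown, and low counts of Cd34 and Pi16 are near the detection limit.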
